A study of Mus musculus with 5 samples.

Results

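The gene described here is Cib2, 1 of the 55357 genes in the deposited matrices, followed across the cell types of aged mouse muscle. It was selected on its UMIs per library total, which were lower in the frail libraries than in the control libraries of these data, so every frail and control value of Cib2 below is a description without a test. Single barcodes of tibialis anterior, a fast hind-limb muscle, were sequenced with 10x Genomics Chromium 3′ chemistry. There were 2 frail and 3 control libraries, each from a female C57BL/6 mouse aged 26 months. Frail mice had a frailty index of at least 0.18 and control mice scored below it. The labels name no transgene or treatment in either group. They describe the preparation both as digested whole cells and as sorted nuclei, which the sources used here do not settle, so the term barcode is used throughout. In a preparation of this kind, fewer cells of a type and less RNA per cell of that type give the same fall in a library sum and cannot be told apart there.

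Cib2 encodes calcium and integrin binding family member 2, a small EF-hand protein that binds calcium. In the inner ear it is a subunit of the hair cell mechanotransduction complex, beside the channel proteins Tmc1 and Tmc2, and its loss causes deafness in mice and humans. In mouse skeletal muscle the protein has been placed at the sarcolemma and at junctions, where it binds the cytoplasmic tail of integrin alpha 7, a laminin receptor that anchors the fibre to its basement membrane.

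The gene (ENSMUSG00000037493) lies at chr9:54544794-54560218 on the minus strand of GRCm38, with 6 exons in its 1 GENCODE vM21 transcript. Its 3′ end, the end that this chemistry reads, overlaps the end of Sh2d7, on the opposite strand, by 227 bases. Sh2d7 held 1 and 0 UMIs (unique molecular identifiers, each standing for a captured transcript) in frail 1 and 2, against 1, 2 and 1 UMIs in control 1 to 3, so the overlapping neighbour was almost unread. The 222 bases in front of the annotated start are shown because they are the promoter region of the gene whose level differs between cell types, at chr9:54560219-54560440 on the minus strand, from RefSeq on GRCm38.p6. The capitals mark matches to the GC-box GGGCGG on either strand.
Cib2 promoter: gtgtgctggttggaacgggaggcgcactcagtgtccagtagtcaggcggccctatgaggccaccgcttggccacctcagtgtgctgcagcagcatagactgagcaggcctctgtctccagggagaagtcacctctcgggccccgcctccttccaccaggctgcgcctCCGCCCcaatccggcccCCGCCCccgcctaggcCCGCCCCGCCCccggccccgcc
The window held 4 GC-box matches, a pair of them overlapping, and 28.78% of 32851 windows of the same length held at least 1. Its base composition was 71.17% G and C, against a median of 51.8% over these windows. The E-box CANNTG, a motif read by myogenic factors, had 0 matches, and 62.4% of the windows held it; the MEF2 motif had 0 matches, and 2.861% of the windows held it. These are matches of letters in this window and no evidence of binding.

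Kept barcodes had at least 200 genes and no more than 10% of UMIs from mitochondrial genes, 9351 and 10517 in frail 1 and 2, against 8650, 9854 and 12088 in control 1 to 3. Their median depth was 6299 and 5353 UMIs in frail 1 and 2, against 7005, 6112 and 6716 UMIs in control 1 to 3. The share of barcodes over the mitochondrial limit was 17.2% and 9.70% in frail 1 and 2, against 11.2%, 7.49% and 8.98% in control 1 to 3. Pairs of libraries shared between 27 and 49 barcode sequences. Control 3 stood apart: 4754 of its 12088 kept barcodes (39.3%) had a UMI of the basal keratins Krt5 or Krt14, against 1 of 38372 in the other 4 libraries together. Library and gate values of Cib2 are therefore also given, further on, without barcodes that hold keratin. Values for subsets of a gate, thinned shares and correlates include them. The fibre bins leave out barcodes with at least 3 UMIs of Krt5 and Krt14 and keep those with fewer.

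Over all kept barcodes Cib2 had 410 and 424 UMIs in frail 1 and 2, against 1135, 1452 and 2095 UMIs in control 1 to 3. Scaled to 1000000 UMIs of the library (CPM) these were 6.06 and 6.28 in the frail libraries, against 17.1, 20.9 and 23.8 in the control libraries. The groups averaged 6.17 ± 0.154 (SD, n = 2) in frail and 20.6 ± 3.34 (SD, n = 3) in control, and did not overlap. Of the 19989 genes tested, 1986 (9.94%) were likewise lower in both frail libraries than in every control library, and nothing is read from that count since the contrast chose the gene. The log2 change fitted by edgeR was -1.76 (SE 0.18). The share of barcodes with at least 1 Cib2 UMI was 3.82% and 3.36% in frail 1 and 2, against 7.71%, 8.83% and 10.6% in control 1 to 3.

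Of the difference between the groups, 66.5% lay in myofibre-rich and keratin-rich barcodes outside the 8 lineage gates. Ungated barcodes were divided, after the data had been seen, into myofibre-rich ones (at least 10% of UMIs from 12 fibre genes such as Acta1, Ckm and Myh4), keratin-rich ones (at least 3 UMIs of Krt5 and Krt14), other immune ones (at least 2 UMIs of the leukocyte antigen Ptprc) and a rest. The myofibre-rich barcodes numbered 11 and 78 in frail 1 and 2, against 327, 835 and 287 in control 1 to 3. They had 1 and 36 Cib2 UMIs in frail 1 and 2, against 508, 775 and 166 in control 1 to 3. Scaled to the UMIs of the class in the same way, Cib2 stood at 66.3 and 203 in the frail libraries, against 313, 222 and 204 in the control libraries. The value of frail 1 is a single UMI, whose exact Poisson interval runs from 1.68 to 369 CPM at 95% and covers counting error only. Frail 2 had an interval of 142 to 281 CPM, against 286 to 341, 207 to 238 and 174 to 238 CPM in control 1 to 3. The interval of frail 2 lay below that of control 1 and overlapped those of control 2 and 3. The share of UMIs in these barcodes did not overlap between the groups: they made up 0.0223% and 0.263% of the UMIs of frail 1 and 2, against 2.45%, 5.02% and 0.922% of those of control 1 to 3.

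The keratin-rich class was found in control 3 alone, with 683 barcodes and 0 in each of the other 4 libraries. It held 786 Cib2 UMIs, which is 37.5% of the Cib2 UMIs of that library and 119 CPM within the class (Poisson interval 111 to 127). A Cib2 UMI was present in 56.4% of these barcodes (Wilson interval 52.6% to 60.0%). The class carried the epithelial list (Krt5, Krt14, Krt15, Dsp and Perp) at 15220 CPM and the perineurial list at 514 CPM, and it was given no cell type name. In control 3 the epithelial list also stood at 180 to 1671 CPM inside the 8 gates, where all 5 of its genes were detected. Inside the gates of the other 4 libraries the list stood at 0 to 208 CPM, and its highest value was in the Myh11 gate of frail 2, while 3 to 5 of the 5 genes were at 0.

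**Figure D1:**
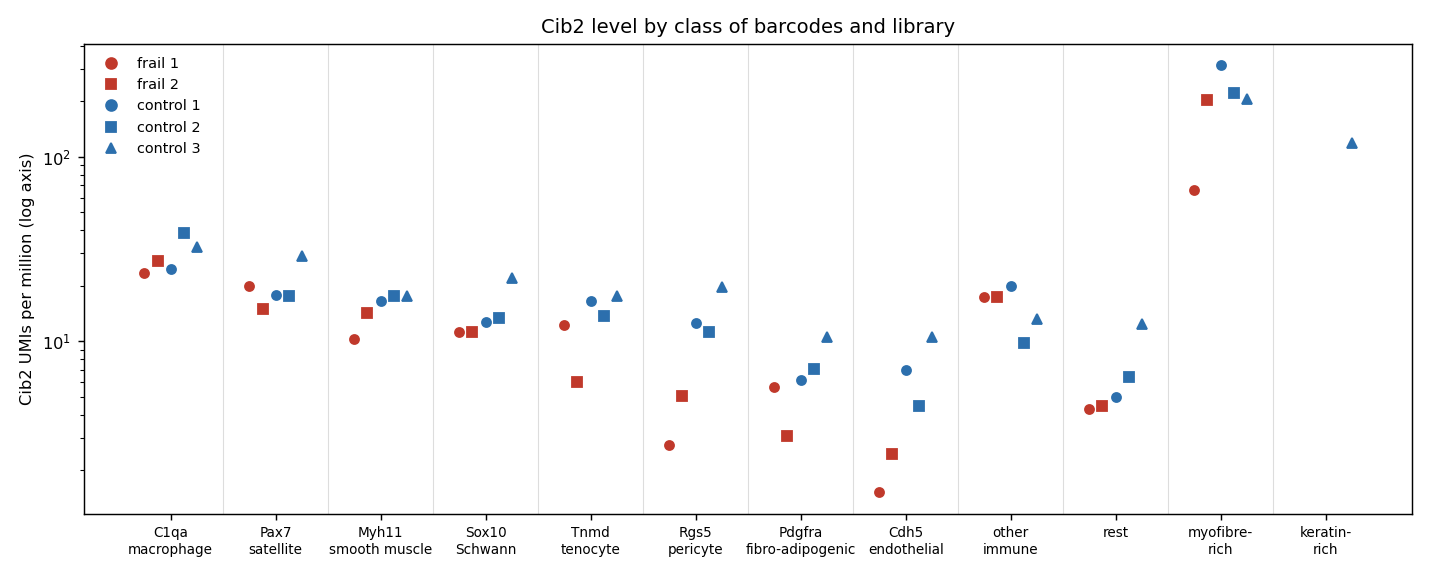
Cib2 CPM within each class of barcodes (log axis), 1 point per library, with frail libraries in red left of the control libraries in blue. The myofibre-rich class reached 203 in frail 2 and 313, 222 and 204 in the controls, the keratin-rich class stood at 119 in control 3, and each of the 8 gates was under 40.

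The difference between the groups, -14.4 Cib2 CPM, can be divided by class, since the contributions of the 12 classes add up to the library value. Myofibre-rich barcodes contributed 0.274 CPM in frail and 6.90 in control libraries, which is 45.9% of the difference. By library they contributed 0.0148 and 0.533 CPM in frail 1 and 2, against 7.66, 11.2 and 1.88 CPM in control 1 to 3. With each library left out in turn, a choice made after the data had been seen, their part was 71.2% of the difference without control 3, and 31.5% to 47.4% without any other single library. Keratin-rich barcodes contributed 0 in frail and 2.97 in control libraries, 20.6% of the difference, through control 3 alone, and made up no part of it without that library. The 8 gates together contributed 4.53 in frail and 8.41 in control libraries, 26.9% of the difference, and the ungated immune and rest classes 1.37 and 2.32, or 6.58%. When each contribution is divided into the share of UMIs a class held and the Cib2 level within it, -9.02 CPM fell to shares and -5.41 to levels. In the 8 gates the same division gave -0.0356 for shares and -3.84 for levels. That share part is a net of opposite signs. It was -0.767 in C1qa and -0.211 in Rgs5, and positive in the other gates, up to 0.388 in Cdh5 and 0.308 in Myh11. The level part was negative in each of the 8 gates, and in C1qa, at -0.288, it was smaller than the share part. In the myofibre-rich class the division gave -5.83 for shares and -0.800 for the level.

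**Figure D2:**
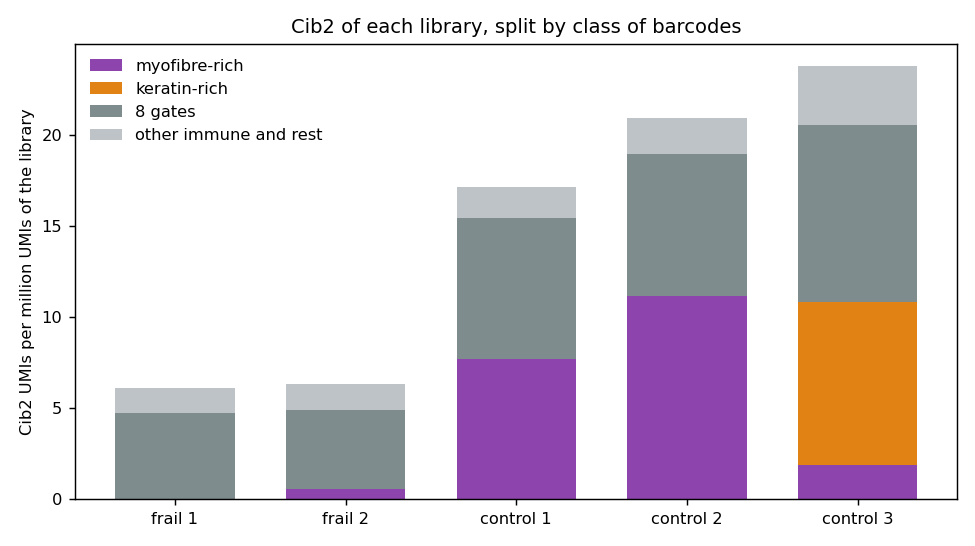
Cib2 CPM of each library, stacked by the class of barcodes that held them. The bars reach 6.06 and 6.28 in frail 1 and 2, against 17.1, 20.9 and 23.8 in control 1 to 3; the myofibre-rich part is large in control 1 and 2, and the keratin-rich part is seen in control 3.

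Cib2 followed the share of fibre transcripts in a barcode, over bins that leave out barcodes with at least 3 UMIs of Krt5 and Krt14. In the control libraries, barcodes with under 0.1% of these transcripts had 7.26, 7.40 and 10.3 Cib2 CPM in control 1 to 3. At 20% to 40% the values were 343, 279 and 235 CPM. Frail 2 showed the same order, with 5.60 CPM in its 10198 barcodes under 0.1% and 233 CPM in its 50 barcodes at 20% to 40%. Frail 1 held 2, 9 and 3 barcodes in its occupied bins above 1%, too few to follow. Frail 1 had 6.00 CPM under 0.1%. Between 0.1% and 1% Cib2 was at 11.3 and 9.17 CPM in frail 1 and 2, against 11.4, 7.49 and 9.43 CPM in control 1 to 3, which was above the bin under 0.1% in 4 of the 5 libraries. The bins share depth and library, and the fibre content of a barcode was not manipulated, so this order is a description.

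**Figure D3:**
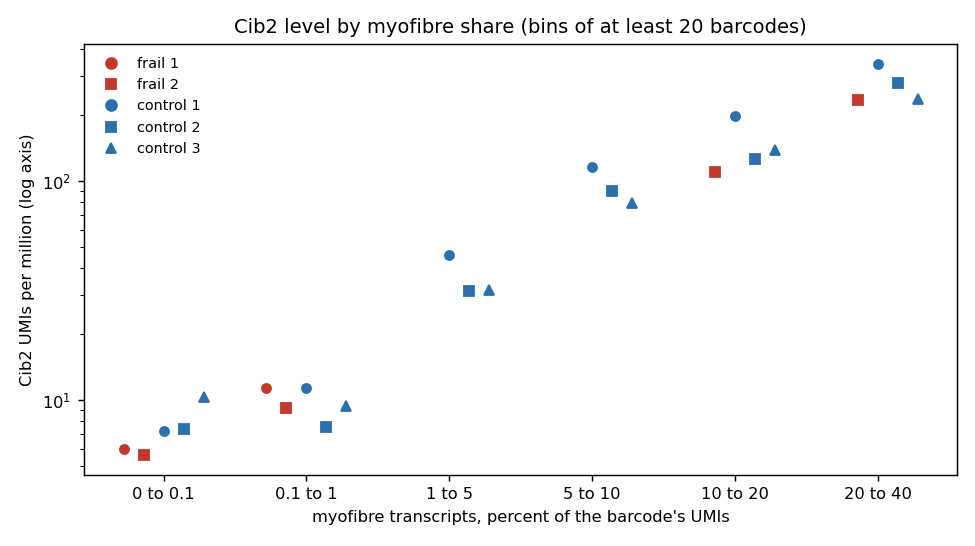
Cib2 CPM (log axis) of barcodes binned by the percent of their UMIs from 12 fibre genes, 1 point per library for bins of at least 20 barcodes. Barcodes with at least 3 UMIs of Krt5 and Krt14 are left out. In the controls the level goes up with each bin above 1%, to 343, 279 and 235 CPM at 20% to 40%, and frail 2 has 233 CPM there.

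Within the myofibre-rich class, barcodes were divided by their leading myosin heavy chain, the motor protein that sets fibre type. Those led by Myh4, the chain of the fastest fibres (type IIb), had 354, 259 and 243 Cib2 CPM in control 1 to 3, and 217 CPM in 41 such barcodes of frail 2. Those led by Myh1, the chain of IIx fibres, had 210, 165 and 186 CPM in control 1 to 3. The Myh4 value was above the Myh1 value in all 3 control libraries. Myh2, the chain of IIa fibres, led 20 barcodes of control 2 and 12 of control 3, at 63.3 and 52.7 CPM from 10 and 2 Cib2 UMIs, while Myh7, the slow chain, led 0 barcodes in any library.

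The 8 gates took barcodes with at least 2 UMIs of a lineage gene and at least 3 times as many as of any other gate gene. Rgs5 and Myh11, which mural cells share, were set against each other by the higher of the pair. In each gate the list of its supporting markers stood higher, in every library, than in any other gate. The macrophage list was at 8159 to 11252 CPM in the C1qa gate and at most at 104 elsewhere. The fibro-adipogenic list was the least exclusive, at 43042 to 52630 CPM in the Pdgfra gate and up to 38766 in another gate. Levels below are Cib2 CPM over the UMIs of the gate, and the share is that of barcodes with at least 1 Cib2 UMI.

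The macrophage gate C1qa was the highest of the 8. Its level was 23.5 and 27.2 in frail 1 and 2, against 24.6, 38.7 and 32.6 in control 1 to 3, so the groups overlapped. The share of positive barcodes was 18.6% and 19.2% in the frail libraries, against 21.0%, 20.4% and 19.8% in the control libraries. The value of control 2 leaned on a single barcode with 43 Cib2 UMIs, 31.5% of whose UMIs came from the fibre genes. In barcodes with under 1% fibre UMIs and no Krt5 or Krt14 UMI, a restriction chosen after the data had been seen, C1qa stood at 23.5 and 27.2 in frail, against 23.5, 23.0 and 29.5 in control libraries.

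Pax7, the transcription factor of satellite cells (the muscle stem cells), gated 127 and 125 barcodes in frail 1 and 2, against 40, 33 and 191 in control 1 to 3. Cib2 there was at 19.95 and 14.9 in frail, against 17.9, 17.5 and 29.0 in control libraries, and the groups overlapped. These values rest on 17 and 14 UMIs in frail 1 and 2, and on 5, 4 and 38 UMIs in control 1 to 3.

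Smooth muscle barcodes, gated by Myh11, had 10.2 and 14.2 in frail 1 and 2, against 16.6, 17.5 and 17.5 in control 1 to 3. Their shares of positive barcodes, 11.2% and 15.5% in frail, against 14.4%, 16.3% and 16.1% in control libraries, came at a median depth of 13167 and 14450 UMIs in frail 1 and 2, against 10529, 10103 and 13337 UMIs in control 1 to 3, the deepest of the 8 gates in each library. The Sox10 gate of Schwann cells, the glia of peripheral nerve, had 11.2 in each of frail 1 and 2, against 12.8, 13.3 and 22.0 in control 1 to 3, from 7 and 8 UMIs in frail, against 2, 5 and 11 UMIs in control libraries. Tenocytes, gated by Tnmd, had 12.2 and 5.98 in frail 1 and 2, against 16.4, 13.8 and 17.5 in control 1 to 3. Their positive shares, 6.65% and 3.69% in frail, against 11.5%, 4.67% and 10.2% in control libraries, overlapped.

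Pericytes, the capillary mural cells gated by Rgs5, had 2.75 and 5.06 in frail 1 and 2, against 12.6, 11.2 and 19.6 in control 1 to 3. Their positive shares were 1.43% and 2.30% in frail, against 5.42%, 5.38% and 7.40% in control libraries. The Pdgfra gate of fibro-adipogenic progenitors, the resident mesenchymal cells of muscle, had 5.65 and 3.08 in frail 1 and 2, against 6.16, 7.07 and 10.6 in control 1 to 3. Endothelial barcodes, gated by Cdh5, were lowest by the mean over the 5 libraries, although in control 1 the Pdgfra gate was lower. They had 1.52 and 2.45 in frail, against 6.98, 4.46 and 10.6 in control libraries. Their positive shares were 0.919% (Wilson interval 0.582% to 1.45%) and 0.956% in frail 1 and 2, against 2.14%, 2.39% and 2.91% in control 1 to 3. Median depths there were 4698 and 3829 UMIs in frail, against 4306, 4242 and 3966.5 UMIs in control libraries. No cell type of these data is known to lack Cib2, so this share is the lowest of the gates and not a measured background. Barcodes of the Pdgfra gate marked by Pi16 with Dpp4, described further on, had a lower level than the Cdh5 gate in most libraries. Their level was 0.329 in frail 2, and 0.953, 2.89 and 8.12 in control 1 to 3. In frail 1 it was higher than in the Cdh5 gate, at 1.83. The share that free RNA adds was not tested.

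Shares were also compared at equal depth. With every barcode thinned to 2000 UMIs, positive shares in the C1qa gate were 4.44% and 5.09% in frail 1 and 2, against 4.66%, 5.28% and 5.82% in control 1 to 3. In the Rgs5 gate they were 0.521% and 0.855% in frail, against 2.06%, 1.82% and 2.53% in control libraries. In the Cdh5 gate they were 0.298% and 0.341% in frail, against 0.935%, 0.712% and 0.989% in control libraries. The C1qa gate was thus above the Rgs5 gate, and Rgs5 above Cdh5, in each of the 5 libraries. The myofibre-rich class reached 32.8% in the 30 barcodes of frail 2 deep enough, and 43.3%, 35.0% and 30.5% in control 1 to 3, and the keratin-rich class 20.9% in control 3. Thinning left out the shallower barcodes, 84 of 1959 in the Cdh5 gate of frail 1 and 48 of 78 in the myofibre-rich class of frail 2, for example.

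Levels between lineages were not used to choose the gene and were tested with edgeR on gate sums, with the library as a block, over 15879 genes and 5 libraries. Against the mean of the other gates, Cib2 was higher in C1qa (log2 difference 1.59, SE 0.17, adjusted p = 4.39e-10, quasi-likelihood test with Benjamini-Hochberg adjustment), in a contrast that called 61.3% of genes. It was also higher in Pax7 by 0.94 (SE 0.30, adjusted p = 0.00989; 42% of genes called) and in Myh11 by 0.54 (SE 0.19, adjusted p = 0.0137; 62% of genes called). It was lower in Cdh5, with a log2 difference of -1.59 (SE 0.20, adjusted p = 1.96e-08; 60.1% of genes called), and in Pdgfra, with -1.07 (SE 0.18, adjusted p = 5.51e-06; 53.9% of genes called). Rgs5 was lower too, with -0.52 (SE 0.19, adjusted p = 0.0272; 41% of genes called). Tnmd differed by 0.16 (adjusted p = 0.665; 40.7% of genes called) and Sox10 by -0.04 (adjusted p = 0.982; 38.2% of genes called), neither past the threshold of 0.05.

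The calls for C1qa, Cdh5 and Pdgfra held in every alternative run. The Rgs5 call was lost with library sizes in place of TMM factors (edgeR adjusted p = 0.0997) and with a looser gate (edgeR adjusted p = 0.582). It was also lost without frail 1, frail 2 or control 2 (edgeR adjusted p = 0.0705 to 0.160). The Rgs5 sign turned to 0.56 with a strict gate, which allows no UMI of another gate gene. Rgs5 and Myh11 were exempt from this towards each other, and the higher of the pair took the barcode. The Myh11 call was lost with library sizes alone (adjusted p = 0.0948) and without frail 2 (adjusted p = 0.0819), and the Pax7 call with the strict gate (adjusted p = 0.216).

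By mean over the 5 libraries the order was C1qa (29.3 ± 6.33, SD), Pax7 (19.8 ± 5.42), Myh11 (15.2 ± 3.10), Sox10 (14.1 ± 4.53), Tnmd (13.2 ± 4.55), Rgs5 (10.2 ± 6.67), Pdgfra (6.51 ± 2.72) and Cdh5 (5.20 ± 3.66). No neighbours in this order differed past the threshold, with edgeR adjusted p-values from 0.0703 for Rgs5 against Pdgfra to 0.813 for Sox10 against Tnmd. That contrast of Rgs5 against Pdgfra passed under 5 of the alternatives, among them the strict gate (log2 difference 1.59) and the fit without frail 1 (0.72). These contrasts called 51.5% of genes for C1qa against Pax7, 50.1% for Pax7 against Myh11, 46.8% for Myh11 against Sox10, 35.7% for Sox10 against Tnmd, 47.8% for Tnmd against Rgs5, 57.3% for Rgs5 against Pdgfra and 65.2% for Pdgfra against Cdh5. In fibre- and keratin-poor barcodes the step between Tnmd and Rgs5 passed (log2 difference 1.27, SE 0.25, edgeR adjusted p = 4.60e-05), as did that between Pdgfra and Cdh5 (1.08, SE 0.21, edgeR adjusted p = 1.86e-05). Rgs5 then lay below Pdgfra, at -0.20 (SE 0.20, edgeR adjusted p = 0.413), where all barcodes gave 0.48 (SE 0.23).

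Between frail and control libraries, 6 of the 8 gates did not overlap, each with the frail values lower, and this count depended on the gate and the barcodes kept. The 6 were Cdh5, where 7.69% of all genes tested were lower in both frail libraries, Pdgfra (9.37%), Rgs5 (8.85%), Myh11 (13.6%), Tnmd (11%) and Sox10 (8.36%). The other 2, C1qa (8.98%) and Pax7 (7.28%), overlapped. With the strict gate 3 of the 8 gates were lower in frail without overlap, and Myh11 and Tnmd overlapped. Sox10 turned round, with 14.3 and 12.1 CPM in frail, against 9.62, 4.78 and 7.85 CPM in control libraries. Those Sox10 values come from 6 and 6 Cib2 UMIs in frail 1 and 2, against 1, 1 and 2 in control 1 to 3. At a limit of 5% mitochondrial UMIs 4 gates were lower without overlap, and Myh11 and Sox10 overlapped. For the strict gate and this limit the share of all genes lower in both frail libraries was not counted, and nothing is read from these counts. The fitted log2 change was -1.94 (SE 0.37) in Rgs5, -1.85 (SE 0.41) in Cdh5, -0.87 (SE 0.34) in Pdgfra and -0.75 (SE 0.36) in Tnmd. It was -0.49 (SE 0.42) in Pax7, -0.45 (SE 0.22) in Myh11 and -0.33 (SE 0.24) in C1qa. In the Sox10 gate Cib2 fell under the filter on low counts and was not fitted. Single libraries moved these values: without frail 1 the change was -1.42 in Pdgfra, -1.42 in Tnmd and -0.23 in Myh11, without frail 2 it was -0.46 in Pdgfra and -0.36 in Tnmd, without control 2 it was -0.14 in C1qa, and without control 3 it was -0.10 in Pax7.

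Inside the gates, fibre transcripts were lower in the frail than in the control libraries, while Krt5 and Krt14 UMIs were seen in control 3 alone. The 12 fibre genes made up 0.00351% to 0.0373% of the UMIs of a gate in the frail libraries and 0.0533% to 1.20% in the control libraries. Gated barcodes with at least 10% fibre UMIs were few, and their part of the Cib2 UMIs of a gate varied. In frail libraries they held 0 or 1 Cib2 UMI in each gate. In the Cdh5 gate they held 41 of 80, 9 of 43 and 12 of 68 Cib2 UMIs in control 1 to 3. In the Rgs5 gate they held 37 of 83, 36 of 101 and 7 of 146, and in the Pdgfra gate 4 of 103, 5 of 113 and 32 of 308. In control 3, 2825 of 7431 gated barcodes (38.0%) had a UMI of Krt5 or Krt14.

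With barcodes restricted to under 1% fibre UMIs and no UMI of these keratins, the library values of Cib2 were 6.04 and 5.64 CPM in frail 1 and 2, against 7.60, 7.47 and 8.50 CPM in control 1 to 3. The groups still did not overlap, and the log2 change was -0.43 (SE 0.18), against -1.76 over all barcodes. How many of all genes were likewise lower in both frail libraries was not counted under this restriction. Nothing is therefore read from this separation, nor from that of single gates below. The restriction kept 9337 and 10410 barcodes of frail 1 and 2, against 8225, 8796 and 7001 barcodes of control 1 to 3, the last of 12088. The Cdh5 gate then had 1.52 and 2.28 in frail, against 3.19, 3.31 and 2.09 in control libraries, and overlapped (log2 change -0.65, SE 0.40). That overlap came through control 3 alone, whose value rests on 8 Cib2 UMIs. Pdgfra had 5.65 and 3.03 in frail, against 5.45, 6.14 and 6.81 in control libraries, and overlapped too (-0.51, SE 0.32). Rgs5 had 2.75 and 4.24 in frail, against 6.67, 6.18 and 5.61 in control libraries, without overlap (-0.86, SE 0.34). Tnmd had 12.2 and 5.98 in frail, against 16.4, 5.29 and 13.6 in control libraries, and overlapped (-0.29, SE 0.47), as did Myh11, with 10.1 and 14.2 in frail, against 12.6, 16.6 and 8.04 in control libraries. Changes in the other fitted gates were -0.17 (SE 0.45) in Pax7, -0.03 (SE 0.29) in Myh11 and 0.01 (SE 0.21) in C1qa. Sox10, with 11.2 and 11.2 in frail, against 12.8, 11.3 and 23.7 in control libraries, also kept its groups apart, on few UMIs. Whether the remaining differences come from fibre RNA below this limit was not tested.

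**Figure D4:**
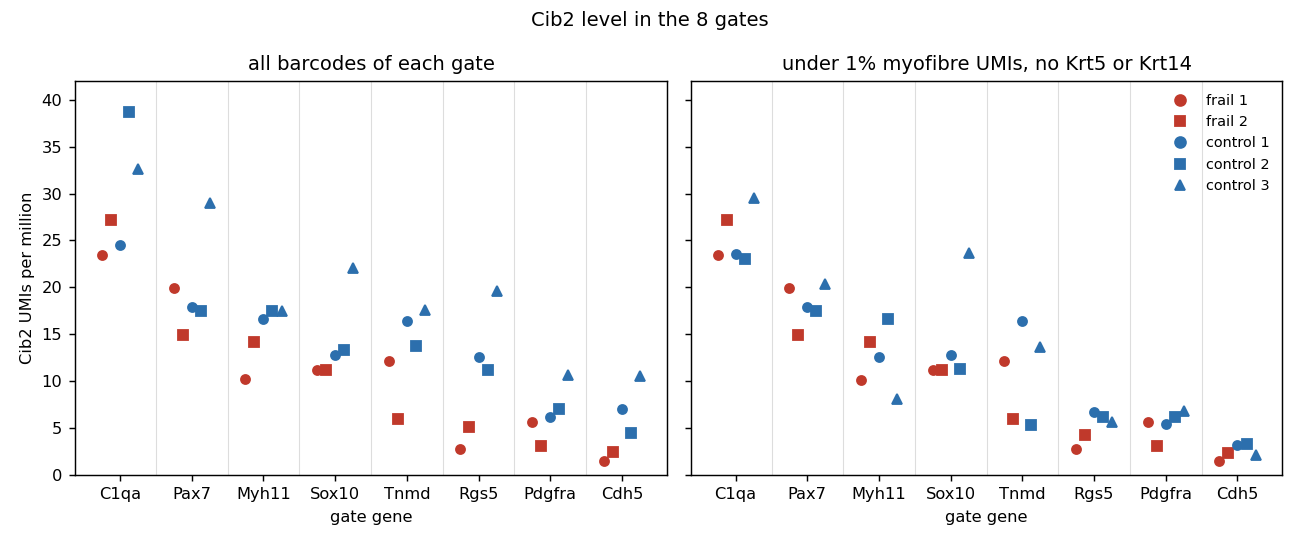
Cib2 CPM in the 8 gates, in order of their mean level, for all barcodes of each gate (left) and for barcodes with under 1% fibre UMIs and no Krt5 or Krt14 UMI (right), 1 point per library. In Cdh5 the frail points are at 1.52 and 2.45 on the left, below control points at 6.98, 4.46 and 10.6. On the right the frail points are at 1.52 and 2.28, against control points at 3.19, 3.31 and 2.09. Of these control points only that of control 3 lies between the frail points, and it rests on 8 Cib2 UMIs.

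Fibro-adipogenic progenitors were uneven in Cib2. The gate was divided by 3 marker sets that follow known states: Pi16 with Dpp4, the adventitial reserve state; Smoc2 with Mme and Cxcl14, interstitial progenitors; and Gdf10 with Inmt and Hsd11b1. The Pi16 set had 1.83 and 0.329 Cib2 CPM in frail 1 and 2, against 0.953, 2.89 and 8.12 in control 1 to 3. The Smoc2 set had 7.54 and 5.09 in frail, against 7.77, 11.2 and 12.3 in control libraries. The Gdf10 set had 6.64 and 3.42 in frail, against 10.99, 6.64 and 10.6 in control libraries. Pi16 was lowest of the 3 sets in each of the 5 libraries. In the Cdh5 gate the capillary set had 1.72 and 3.10 in frail, against 6.61, 5.26 and 11.3 in control libraries, from 11 to 43 UMIs per library. The arterial and venous sets held 0 to 14 Cib2 UMIs per library, too few to order.

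**Figure D5:**
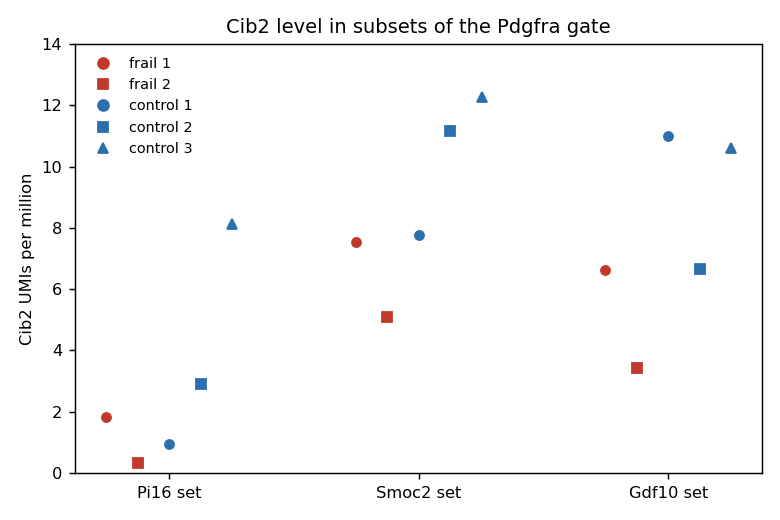
Cib2 CPM in 3 marker-defined sets of the Pdgfra gate, 1 point per library. In every library the Pi16 set is lowest, from 0.329 in frail 2 to 8.12 in control 3, against 5.09 and 12.3 for the Smoc2 set in the same libraries.

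Cib2-positive barcodes were then set against the negative barcodes of the same gate, summed per library, in the gates with the most Cib2 UMIs. In the Pdgfra gate edgeR called 707 of 13583 genes (5.21%), 328 higher and 379 lower in positive barcodes. The higher genes with the largest changes were fibre genes: Car3 (log2 difference 4.51, SE 0.63, adjusted p = 0.0357), the oxygen carrier Mb (3.78), Cox6a2, Pgam2, Pvalb, the sarcomere gene Tcap and Myh4 (3.00). None of these 7 passed in fibre- and keratin-poor barcodes (adjusted p = 0.825 to 0.997), where their log2 differences were -0.17 to 0.59. Of the 12 genes of the fibre list 11 were tested, 3 rose and 0 fell, with a median of 3.48 against -0.01 over all genes tested. Ucp2, the uncoupling protein, was higher by 1.69 (SE 0.12, adjusted p = 8.28e-11), but by 1.56 with adjusted p = 0.184 in fibre- and keratin-poor barcodes. The immediate early factor Egr3 (0.82, then 0.78) and Arhgdib (0.77, then 0.90) passed edgeR in both.

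The 5 largest falls in positive fibro-adipogenic barcodes also passed edgeR in fibre- and keratin-poor barcodes. Tmem100 was lower by a log2 difference of -1.41 (SE 0.09, edgeR adjusted p = 4.19e-12), Efhd1, a mitochondrial calcium-binding protein, by -1.74, and Dpp4, a marker of the Pi16 state, by -1.62. Car8 and Opcml were the others, with -1.79 and -1.44. In barcodes thinned to 2000 UMIs, Efhd1 (-2.06), Dpp4 (-1.49) and Tmem100 (-1.66) still passed edgeR, and Car8 (adjusted p = 0.101) and Opcml (adjusted p = 0.0974) did not. Ucp2 (0.03), Egr3 (0.37) and Arhgdib (0.26) did not pass after thinning either (adjusted p = 0.995, 0.866 and 0.955). The median depth of positive barcodes was above that of negative ones in 4 of the 5 libraries, with 8612 against 8099 UMIs in frail 1, and below it in control 1, with 8683 against 9075 UMIs.

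In the C1qa gate edgeR called 13 of 9658 genes (0.135%), 4 higher and 9 lower in positive barcodes. The higher genes were the adaptor Samsn1 (log2 difference 0.78, SE 0.12, adjusted p = 0.0153), Ramp1, a receptor activity-modifying protein (0.67, adjusted p = 0.0485), the leukocyte antigen Cd52 (0.54, adjusted p = 0.0376) and the ribosomal gene Rplp0 (0.35, adjusted p = 0.0438), whose reads can be shared with processed copies. The 5 largest falls were Efemp1 (-1.54, adjusted p = 0.00447), Pcolce2 (-1.47), Fstl1 (-1.17), Fndc1 (-1.03) and Ackr3 (-0.89). In fibre- and keratin-poor barcodes Rplp0 no longer passed edgeR (adjusted p = 0.248), while the other 8 named genes did. None of the 6 macrophage markers (median -0.10) and none of the 7 fibro-adipogenic markers (median -0.39) passed in either direction, against a median of 0.00 over all genes tested. The count of calls was 5 without frail 1, 21 without frail 2, 1 without control 1 and 8 without control 3. The median depth of positive barcodes was above that of negative ones in each library, with 10485.5 against 8143 UMIs in frail 1. After thinning edgeR called 2 genes, and Cd52, Rplp0 and Fstl1 were not among the calls (edgeR adjusted p = 0.997, 0.997 and 0.247). Samsn1, Ramp1, Efemp1, Pcolce2, Fndc1 and Ackr3 were not among the genes tested after thinning.

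Among the genes whose levels were most like Cib2 over the 40 sums of gate and library were Homer1 (Pearson r = 0.73 of log2(CPM + 1), over 10791 genes), Zfp106 (0.73), Rnf150 (0.70), Tiparp (0.69), Lsm4, Nfkbie, Tmem141, Bola2 and Pank1 (0.65). With the myofibre-rich and keratin-rich sums added, 45 in all, they were Zfp106 (0.86), Macrod1 (0.84), Slc25a11 (0.84), Pank1 (0.83), Prxl2b (0.82), Dnajc15, Smim20, Atp5e, Cox14 and Acot13 (0.81). Sums of 1 library share an animal and a depth, and these are descriptions without a test.

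The other genes of the family and its known partners were read from the same fits. Cib1, the close relative of Cib2 that binds integrin alpha IIb in platelets, had 41.0 and 33.7 CPM in frail 1 and 2, against 38.0, 29.5 and 35.3 in control 1 to 3, and the groups overlapped. Its log2 change was 0.11 (SE 0.18, edgeR adjusted p = 0.98). In myofibre-rich barcodes, where Cib2 stood highest, Cib1 was below its library level in frail 2 and in control 1 to 3. It had 0 and 16.9 CPM in frail 1 and 2, against 5.54, 9.17 and 16.0 in control 1 to 3. The Cib1 UMIs behind them were 0 and 3 in frail, against 9, 32 and 13 in control libraries. In frail 1 the class held 15082 UMIs, too few to read its 0 as a lower level. Cib3 stayed at 0.563 to 1.05 CPM in every library, and Cib4 had 1 UMI, in control 2.

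Partners fell into 6 lists: the family, integrins, the hair cell complex, sphingosine kinases with Rheb and mTORC1, kinases bound by Cib1, and genomic neighbours. Over all barcodes 26 of their genes were tested between frail and control libraries, and edgeR called 0 of them; 1 had an unadjusted p under 0.05, and DESeq2 called 0. That contrast called 0 of 19989 genes (0%) with edgeR, with 1119 at an unadjusted p under 0.05 and 323 called by DESeq2. Within the 8 gates 12 to 24 of them were tested and 0 were called by either tool, with 0 to 2 at an unadjusted p under 0.05. Over all genes of a gate edgeR called 0.185% in Cdh5, 0.00642% in Pdgfra, 0.284% in Myh11, 0.0271% in Sox10 and 0.0243% in Pax7, and 0% in Rgs5, C1qa and Tnmd, where 666, 599 and 483 genes had an unadjusted p under 0.05 and DESeq2 called 57, 25 and 5. Itga7, the integrin chain that binds Cib2 in muscle, had 21.0 and 18.5 CPM in frail 1 and 2, against 23.0, 17.5 and 17.9 in control 1 to 3. The neighbouring gene Idh3a, a subunit of mitochondrial isocitrate dehydrogenase, had 38.6 and 27.9 in frail, against 49.8, 54.1 and 36.8 in control libraries, which overlapped.

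The partners were also compared between lineages. Itga7 was higher in Myh11 (log2 difference 3.65, edgeR adjusted p = 5.21e-25), Rgs5 (3.06), Pax7 (2.15) and Sox10 (1.45), and lower in Pdgfra (-3.03), Tnmd (-2.71), C1qa (-2.50) and Cdh5 (-2.06). Cib2 was likewise lower in Pdgfra and Cdh5, and higher in Myh11 (0.54) and Pax7 (0.94). Its sign was opposite to that of Itga7 in C1qa (1.59) and Rgs5 (-0.52). The Rgs5 sign of Cib2 turned round with the strict gate, and other alternative runs given above lost its call. In Tnmd and Sox10 Cib2 did not pass the threshold. Of the 10 hair cell genes 4 were tested: Myo7a, an unconventional myosin, was highest against the other gates in C1qa (2.43), Whrn, a scaffold protein, in Pax7 (2.47), Tmie in Rgs5 (3.70) and Cdh23, a tip-link cadherin, in Cdh5 (3.94). Tmc1 and Tmc2, the channel partners, were not among the genes that passed the filter on low counts. Cib1 was higher in C1qa (0.57), Cdh5 (0.41), Rgs5 (0.31) and Myh11 (0.25), and lower in Pax7 (-1.53), where Cib2 was higher.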

How the data were processed

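UMI counts per gene and barcode were deposited for each of the 5 libraries, whole numbers per the matrix files; per the submitters' processing notes, bcl2fastq 5.01, Cell Ranger 7.0.0 and Seurat 4.1.2 were used with build GRCm38. No doublet caller was run. Barcodes were gated, and deposited counts were summed per library and gate. Sums were fitted with edgeR 4.0.16 (R 4.3.3; TMM factors, filterByExpr, robust quasi-likelihood test, Benjamini-Hochberg adjustment at 0.05 over all genes tested), for gates with at least 20 barcodes in every library; DESeq2 1.42.0 was an alternative. The library was a block between gates and between positive and negative barcodes. Gene, lists and tests were chosen with earlier results of these data known. Named genes were the partners past the test, the 10 best correlates with a mean of at least 5 CPM, and the 10 largest rises and 5 largest falls of positive barcodes with an average log2 CPM of at least 5. Of the correlates, 1 is not reported here. Thinning gave the expected positive share of each barcode at a fixed number of UMIs. In the shares and levels, the share part was the difference in UMI share times the mean level of both groups, and the level part the reverse; the level of keratin-rich barcodes in frail libraries, undefined there, was set to that of the controls. Poisson and Wilson intervals cover counting error at 95%. Total deposited UMIs were 72043464 and 70155746 in frail 1 and 2, against 68170531, 71140868 and 90942121 in control 1 to 3. Counts were simulated from these libraries with 100 genes changed at each fold. The changed genes were drawn from those with at least 20 UMIs expected in the smallest sum. Recovery of genes with fewer UMIs was not measured. With 19989 genes, the frail contrast over all barcodes recovered 19% of genes changed 2-fold and 78% of those changed 4-fold, and called 13 unchanged genes. In the Pdgfra gate, with 15567 genes, it recovered 45% and 93%, and called 13 unchanged genes. The simulated contrast of positive and negative Pdgfra barcodes recovered 100% at both folds and called 27 unchanged genes. Alternatives were other gates, filters, scalings and tests, and each library left out.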

Additional observations from a re-analysis of the deposited data

How the results depend on the processing

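The log2 change of Cib2 over all barcodes ranged from -1.86 to -1.67 with each library left out, and was -0.43 in fibre- and keratin-poor barcodes, a restriction chosen after seeing the data. In that restriction it was -0.65 in Cdh5, -0.86 in Rgs5, -0.031 in Myh11, 0.0099 in C1qa and -0.29 in Tnmd. The looser gate gave -2.63 in Rgs5, -0.84 in Myh11 and -0.71 in C1qa, and the strict gate -3.11 in Rgs5, -0.67 in Myh11, -0.0062 in C1qa and 0.31 in Pax7. With each library left out the change ran from -1.42 to -0.46 in Pdgfra, -0.64 to -0.23 in Myh11, -1.42 to -0.36 in Tnmd and -0.66 to -0.10 in Pax7. Replicate numbers were not shown to pair the libraries (correlations of deviations -0.022 and 0.150 for 2 pairs); with them as a replicate block Cib2 in Pax7 changed by -0.092. Counts of genes called between frail and control moved most. For no low-count filter, the replicate block and DESeq2, in that order, edgeR or DESeq2 called 15, 366 and 323 genes over all barcodes, 308, 61 and 118 in Cdh5, 122, 166 and 98 in Pdgfra, 70, 32 and 57 in Rgs5, 188, 204 and 93 in Myh11, 137, 380 and 25 in C1qa, 113, 1 and 5 in Tnmd, 25, 16 and 7 in Sox10, and 63, 51 and 14 in Pax7. The unaltered counts were 0 over all barcodes, 27, 1, 0, 34, 0, 0, 2 and 2 in the gates in the same order. With each library left out they ranged over 0 to 38 in Cdh5, 0 to 4 in Pdgfra, 0 to 15 in Rgs5, 9 to 104 in Myh11, 0 to 23 in C1qa, 0 to 9 in Tnmd, 1 to 8 in Sox10 and 1 to 95 in Pax7. The looser gate called 7 in Cdh5, 9 in Pdgfra, 7 in Rgs5, 0 in Myh11, 1 in Tnmd, 0 in Sox10 and 9 in Pax7; the strict gate called 0 in Cdh5, 12 in Rgs5, 18 in Myh11, 5 in Sox10 and 8 in Pax7; library sizes alone called 13 in Cdh5; and the fibre- and keratin-poor barcodes 2 in Cdh5 and 4 in Myh11. Against the other gates, Rgs5 was at -0.39 with library sizes only, -0.15 with the looser gate, 0.56 with the strict gate and -0.71 to -0.31 with each library left out. Myh11 was at 0.36 with library sizes only and 0.41 to 0.65 with each library left out, and Pax7 at 0.75 with the strict gate. Tnmd ranged from -0.030 to 0.26 and Sox10 from -0.12 to 0.0083 with each library left out; Sox10 was at 0.29 with library sizes only, 0.023 with DESeq2 and 0.28 in fibre- and keratin-poor barcodes. Of the neighbours, none of which passed unaltered, C1qa against Pax7 ranged from 0.50 to 0.70 with each library left out, and passed without frail 1. Myh11 against Sox10 passed with the looser gate (1.05), and Sox10 against Tnmd was 0.18 with library sizes only, without passing. Tnmd against Rgs5 passed with no filter (0.58), in fibre- and keratin-poor barcodes (1.27) and without control 3, was -0.45 with the strict gate, and ran from 0.25 to 0.85 with each library left out. Rgs5 against Pdgfra passed with library sizes only (0.60), no filter (0.43), the looser and strict gates (0.94 and 1.59) and without frail 1, was -0.20 in fibre- and keratin-poor barcodes, and ran from 0.35 to 0.72 with each library left out. Pdgfra against Cdh5 passed with no filter (0.49), in fibre- and keratin-poor barcodes (1.08) and without control 3, and ran from 0.14 to 0.62 with each library left out. Genes of positive barcodes numbered 1383 with no filter and 104 after thinning in Pdgfra, and 254 with no filter, 2 after thinning, 29 in fibre- and keratin-poor barcodes and 1 to 21 with each library left out in C1qa. The mean level was 22.3 in Rgs5 and 20.6 in Myh11 with the strict gate, and 19.2 in Myh11 with the looser one. Mean positive shares at 1000 and 4000 UMIs were 0.326% and 1.68% in Cdh5, 0.647% and 2.45% in Pdgfra, 1.56% and 5.69% in Myh11, 2.67% and 10.1% in C1qa, 1.24% and 4.53% in Tnmd, 1.17% and 5.57% in Sox10, and 1.83% and 7.29% in Pax7; Rgs5 was at 3.13% at 4000 UMIs. The causes of these shifts were not tested. The Sox10 and Pax7 gates, with as few as 2 and 4 Cib2 UMIs in a library, and 1 and 2 with the strict gate, are limited by depth.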
